A study of Mus musculus with 12 samples.

Results

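The thioredoxin, peroxiredoxin and sulfiredoxin genes of mouse liver were followed in 12 C57Bl/6J mice, an inbred laboratory strain. The sh Grb14 group (6 livers) had been given by vein a recombinant adenovirus that carries a short hairpin RNA against Grb14, and the sh scramble group (6 livers) one that carries a scrambled hairpin. All mice were injected at 10 weeks of age and their livers were taken in the fed state 7 days later, so both groups carry an adenovirus. Livers without virus were not analysed here, and the promoter that drives the hairpins is not given in the sources used here. Of 10 genes chosen by name (Srxn1, Txnrd1, Txnrd2, Txn1 and Prdx1 to Prdx6), 8 had a probe set that the platform annotation pairs with their symbol alone, among 19938 genes measured in all. Prdx5 and Prdx6 had no such probe set and were not analysed here.

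These genes encode enzymes of thiol electron transfer in more than 1 compartment of the cell. Peroxiredoxins are thiol peroxidases that reduce hydrogen peroxide with a cysteine. The disulfide that this leaves in the typical peroxiredoxins of cytosol and mitochondrion is reduced by thioredoxin. Thioredoxin is reduced by thioredoxin reductase, a selenoprotein that uses NADPH. When the peroxidatic cysteine is oxidised further to a sulfinic acid, sulfiredoxin repairs it with ATP. Txnrd1, Txn1, Prdx1 and Prdx2 encode the cytosolic enzymes, Txnrd2 and Prdx3 mitochondrial ones, and Prdx4 the peroxiredoxin of the secretory pathway. Srxn1, Txnrd1 and Prdx1 are known targets of the transcription factor NRF2, which is the main inducer of antioxidant genes in liver.

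The promoter windows below are shown because they set the genes that changed most beside Prdx1, which did not pass the test. They run from 250 bases before to 50 bases after an annotated gene start, are printed 5′ to 3′ on the plus strand, and come from RefSeq (GRCm38.p6). All 8 measured genes had a window there, and Txnrd1 had 3. Capitals mark the letters of the antioxidant response element core, TGACNNNGC, or of the AP-1 core, TGAGTCA, found on either strand. The windows are chr2:152105274-152105573 for Srxn1, chr10:82858956-82859255 for Txnrd1, chr16:18426167-18426466 for Txnrd2 and chr4:116685349-116685648 for Prdx1.
Srxn1: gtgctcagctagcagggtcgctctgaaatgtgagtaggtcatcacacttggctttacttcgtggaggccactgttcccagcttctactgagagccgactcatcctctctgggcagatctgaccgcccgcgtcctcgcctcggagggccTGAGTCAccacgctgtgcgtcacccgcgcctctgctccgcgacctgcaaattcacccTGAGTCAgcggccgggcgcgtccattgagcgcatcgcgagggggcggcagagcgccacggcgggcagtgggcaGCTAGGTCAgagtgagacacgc
Txnrd1: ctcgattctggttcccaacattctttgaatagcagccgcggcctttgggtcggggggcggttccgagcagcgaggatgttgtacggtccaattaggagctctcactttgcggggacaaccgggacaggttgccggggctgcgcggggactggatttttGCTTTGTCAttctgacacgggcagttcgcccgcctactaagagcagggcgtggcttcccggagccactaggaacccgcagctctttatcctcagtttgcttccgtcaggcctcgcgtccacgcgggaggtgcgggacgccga
Txnrd2: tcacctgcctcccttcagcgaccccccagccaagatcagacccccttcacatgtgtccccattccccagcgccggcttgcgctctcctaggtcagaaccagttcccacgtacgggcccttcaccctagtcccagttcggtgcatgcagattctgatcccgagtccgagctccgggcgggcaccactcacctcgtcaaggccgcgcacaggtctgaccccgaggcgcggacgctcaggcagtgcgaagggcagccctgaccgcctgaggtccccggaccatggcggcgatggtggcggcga
Prdx1: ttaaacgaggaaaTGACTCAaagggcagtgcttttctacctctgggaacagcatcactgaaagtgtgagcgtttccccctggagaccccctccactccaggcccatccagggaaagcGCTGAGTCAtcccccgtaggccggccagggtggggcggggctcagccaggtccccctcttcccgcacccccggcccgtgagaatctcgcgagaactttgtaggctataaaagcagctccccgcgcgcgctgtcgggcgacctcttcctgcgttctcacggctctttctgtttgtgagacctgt

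The letters TGACNNNGC stood in a window of 3 of the 8 measured genes (Srxn1, Txnrd1 and Prdx1), and in 12.4% of all 32851 windows of the same length in the RefSeq table. In Srxn1 the match began at base 279 of the window, where the start site is base 251, in Prdx1 at base 118 and in Txnrd1 at base 159. The 2 other Txnrd1 windows had none. The counts here are over genes and the shares over windows, so they are not like measures. The AP-1 letters stood in 2 of the 8 genes, with 2 matches each in Srxn1 and Prdx1, and in 5.20% of all windows. In Prdx1 1 AP-1 match lies inside the antioxidant response element match and shares its letters. The Srxn1 AP-1 match at base 206 is followed by the letters GC. With them it differs from the antioxidant response element core in 1 letter, so the strict search did not count it. A match describes letters in a window and is not a measured binding site. The genes with matches did not move alike: as given below, Srxn1 and Txnrd1 rose, while Prdx1 did not pass the test.

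Each array holds log2 expression values, and the array medians lay between 7.06 and 7.17. Grb14, the targeted gene, was at 8.24 ± 0.13 in sh Grb14 livers and 10.15 ± 0.063 in sh scramble livers (SD, n = 6 each), with no overlap. Each change is the log2 level in sh Grb14 livers minus that in sh scramble livers, given with limma's standard error (SE), and a gene passed at an adjusted p under 0.05 over all genes tested. Differences between the groups were widespread: 65.3% of all genes passed, 25.8% as higher and 39.5% as lower. The groups did not overlap in 41.2% of all genes, with sh Grb14 livers higher in 20.3% and lower in 20.8%. Beside that background, the test called 4 of the 8 measured genes higher and 1 lower, and left 3 uncalled. The 5 that passed were the 5 whose groups did not overlap, 4 higher and 1 lower, each with a two-sided exact permutation p of 0.00216. Any gene without overlap has that p in this design, so the p restates the lack of overlap and is no further support. The median change of the 8 genes was 0.091, beside −0.10 over all genes.

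Srxn1 and Txnrd1 rose and Txnrd2 fell in sh Grb14 livers, by far more than the spread between mice. Among the other genes the changes were small, and their calls were not kept under every scaling. When each array was centred on the median of its genes, the median change of all genes moved by −0.15, to −0.25. That scaling kept the calls of Srxn1, Txnrd1 and Txnrd2, it ended those of Txn1 and Prdx3, and it added Prdx1, Prdx2 and Prdx4 as lower. The calls of Txn1 and Prdx3 stood after a further quantile normalization (0.23 and 0.26). They also stood with arrays centred on the median of all probe sets (0.15 and 0.23). In these whole-liver samples a change in RNA per cell and a change in the number of cells of a type cannot be told apart.

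**Figure D1:**
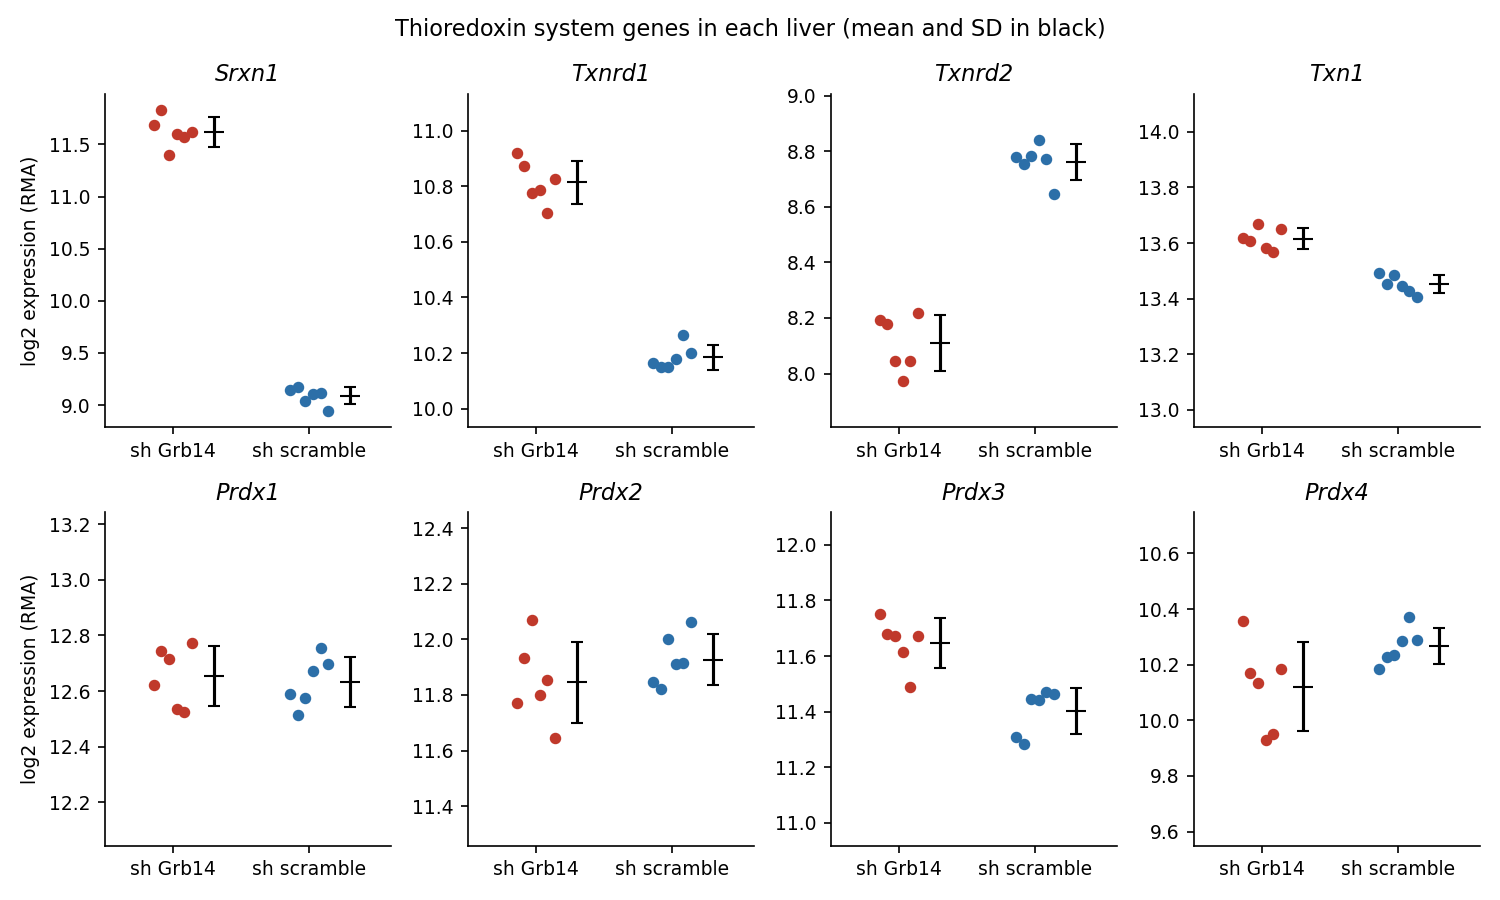
Log2 expression of the 8 measured genes in each liver, with sh Grb14 (6 mice) on the left and sh scramble (6 mice) on the right of each panel. Black marks are the mean and SD, and the Srxn1 axis spans a wider range than the other axes. The groups are apart in Srxn1, Txnrd1, Txnrd2, Txn1 and Prdx3 and overlap in Prdx1, Prdx2 and Prdx4.

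Srxn1, which encodes sulfiredoxin, had the widest separation of the 8. Its log2 level ran from 11.40 through a median of 11.61 to 11.83 in sh Grb14 livers, and from 8.94 through a median of 9.11 to 9.17 in sh scramble livers. The lowest sh Grb14 liver stood 2.23 above the highest sh scramble liver on the log2 scale. The change was 2.53 (SE 0.061), a 5.77-fold rise (limma adjusted p = 8.31e-15). A larger positive change was found for 99 of the 19938 genes. The spread between mice was small in both groups, with an SD of 0.14 in sh Grb14 livers and 0.083 in sh scramble livers.

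The reductases of the cytosol and the mitochondrion moved in opposite directions. Txnrd1, the cytosolic thioredoxin reductase, ran from 10.70 through a median of 10.81 to 10.92 in sh Grb14 livers, and from 10.15 through a median of 10.17 to 10.26 in sh scramble livers. Every sh Grb14 liver was above every sh scramble liver. The change was 0.63 (SE 0.041), a 1.55-fold rise (limma adjusted p = 6.47e-10). Txnrd2, the mitochondrial reductase, ran from 7.97 through a median of 8.11 to 8.22 in sh Grb14 livers, and from 8.65 through a median of 8.78 to 8.84 in sh scramble livers. Every sh Grb14 liver was below every sh scramble liver. The change was −0.65 (SE 0.054), to 63.6% of the level in sh scramble livers (adjusted p = 1.60e-08 from limma). Arrays centred on the median of the genes gave 0.48 for Txnrd1 and −0.80 for Txnrd2.

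Txn1, the cytosolic thioredoxin that both delivers electrons to peroxiredoxins and serves ribonucleotide reductase, lay near the top of the scale, whose highest value was 14.24. It ran from 13.57 through a median of 13.61 to 13.67 in sh Grb14 livers, and from 13.41 through a median of 13.45 to 13.49 in sh scramble livers. The groups did not overlap, but the gap between them was only 0.075. The change was 0.16 (SE 0.027), a 1.12-fold rise (limma adjusted p = 5.83e-05). Arrays centred on the median of the genes gave 0.017 (limma adjusted p = 0.631), and compression of values this close to the top was not tested.

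The mitochondrial Prdx3 was the only measured peroxiredoxin gene that passed. It ran from 11.49 through a median of 11.67 to 11.75 in sh Grb14 livers, and from 11.28 through a median of 11.44 to 11.47 in sh scramble livers. The lowest sh Grb14 liver was 0.017 above the highest sh scramble liver. The change was 0.24 (SE 0.048), a 1.18-fold rise (limma adjusted p = 0.000290), and with arrays centred on the median of the genes it was 0.097 (limma adjusted p = 0.0838). Prdx3 thus stood higher in the same livers in which Txnrd2 stood lower.

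Prdx1 and Prdx2, the cytosolic peroxiredoxins that sulfiredoxin repairs, did not pass. Prdx1 ran from 12.52 through a median of 12.67 to 12.77 in sh Grb14 livers, and from 12.51 through a median of 12.63 to 12.75 in sh scramble livers. The groups overlapped over nearly their whole range. The change was 0.019 with a 95% interval of −0.089 to 0.13 (limma adjusted p = 0.750). Prdx2, the peroxiredoxin also known for its abundance in red cells, ran from 11.65 through a median of 11.83 to 12.07 in sh Grb14 livers, and from 11.82 through a median of 11.91 to 12.06 in sh scramble livers. The sh Grb14 livers covered the whole sh scramble range. The change was −0.082 with a 95% interval of −0.21 to 0.048 (limma adjusted p = 0.245). With arrays centred on the median of the genes the changes were −0.13 for Prdx1 and −0.23 for Prdx2, and both then passed as lower (limma adjusted p = 0.0473 for Prdx1 and 0.00299 for Prdx2).

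Both genes had 2 probe sets, and the one with the higher mean was used. For Prdx2 they differed widely in level. The second averaged 9.22 in sh Grb14 livers and 9.23 in sh scramble livers, against 11.84 and 11.93 for the one used. The second for Prdx1 averaged 12.30 in sh Grb14 livers and 12.26 in sh scramble livers, against 12.65 and 12.63. The second probe set gave 0.045 (SE 0.047) for Prdx1 and −0.0051 (SE 0.043) for Prdx2, and neither passed (limma adjusted p = 0.432 for Prdx1 and 0.929 for Prdx2, over all probe sets). The RefSeq table lists 1 pseudogene named for Prdx1 and 2 named for Prdx2, so these probe sets may share signal with near-identical copies. Probe positions were not available, so it was not checked whether the probe sets used read the genes themselves or such copies. Probe set numbers of the other measured genes and Grb14 rise with chromosome in the order 10, 16, 19, 2, 4, X. Prdx1 is on chromosome 4. Its set used, 10436048, falls between chromosomes 16 and 19, and its second, 10507328, between 2 and 4. Prdx2 is on chromosome 8. Its set used, 10356999, falls before chromosome 10, and its second, 10573483, between 4 and X. The Prdx1 and Prdx2 values and pairs given here may thus be those of copies.

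Prdx4, the peroxiredoxin of the endoplasmic reticulum, had the highest SD of the 8 among the sh Grb14 livers, at 0.16. It ran from 9.93 through a median of 10.15 to 10.36 in sh Grb14 livers, and from 10.19 through a median of 10.26 to 10.37 in sh scramble livers. In 5 of the 6 sh Grb14 livers it was below the lowest sh scramble liver, and the sixth, replicate 1, lay near the top of the sh scramble range. The change was −0.14 (SE 0.064) with a 95% interval of −0.28 to −0.0097, and it did not pass after adjustment (limma adjusted p = 0.0561). Without sh Grb14 replicate 1 it was −0.19 and passed (limma adjusted p = 0.00762). It also passed with arrays centred on the median of the genes, at −0.29 (limma adjusted p = 0.000649).

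**Figure D2:**
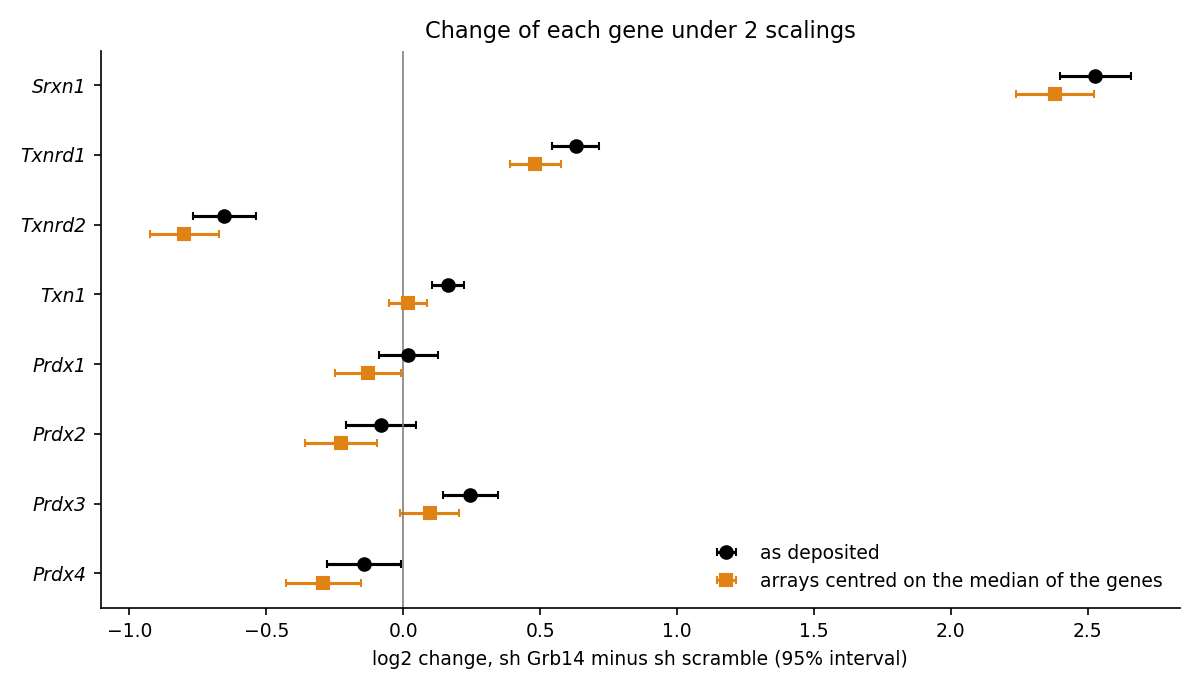
Log2 change of each measured gene, sh Grb14 minus sh scramble, with its 95% interval, for the values as deposited (black circles) and for arrays centred on the median of the genes (orange squares). Srxn1 (2.53 and 2.38), Txnrd1 (0.63 and 0.48) and Txnrd2 (−0.65 and −0.80) stay clear of 0 under both scalings. The interval of Prdx4 also excludes 0 under both, as deposited only narrowly (−0.28 to −0.0097). Those of Txn1, Prdx1, Prdx2 and Prdx3 span 0 under 1 of them.

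**Figure D3:**
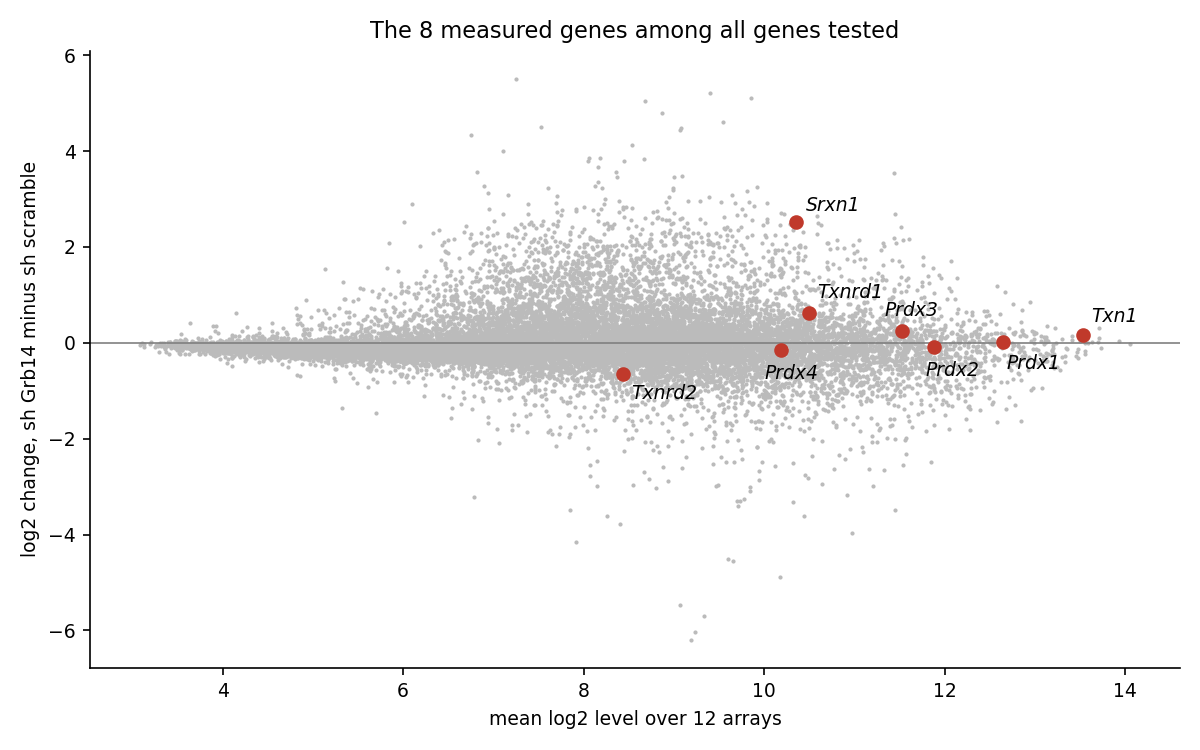
Log2 change, sh Grb14 minus sh scramble, against the mean log2 level over the 12 arrays for all 19938 genes (grey) and the 8 measured genes of the thioredoxin system (red). Srxn1 lies at the upper edge at 2.53, with 99 genes above it, while the peroxiredoxin genes lie between −0.14 and 0.24 inside the cloud.

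The changes of the genes were then compared with each other within each liver, as the difference of 2 log2 values, which a shift of a whole array does not move. Of 8 pairs chosen by role, 7 had both genes measured, and 6 of the 7 differed between the groups by a two-sided exact permutation test adjusted over the 7 pairs. No share over other gene pairs was computed, and since 65.3% of all genes passed, the count is not read as particular to these pairs. Txnrd1 rose relative to Txnrd2 by 1.28 (SE of the difference of group means 0.044) and relative to Txn1, the protein it reduces, by 0.47 (SE 0.041). Srxn1 rose relative to Prdx1, whose product it repairs, by 2.51 (SE 0.089) and relative to Txnrd1 by 1.90 (SE 0.061). Prdx1 fell relative to the mitochondrial Prdx3 by 0.23 (SE 0.044). Each of these 5 pairs had an adjusted exact p of 0.00303, from an exact p of 0.00216, the lowest possible with 924 ways to split 12 mice evenly.

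The pairs within the peroxiredoxins differed less. Prdx4 fell relative to Prdx1 by 0.16 (SE 0.057, adjusted exact permutation p = 0.0177). That call was lost without sh scramble replicate 2 (−0.15, adjusted exact p = 0.0556) and without sh scramble replicate 3 (−0.16, adjusted exact p = 0.0530). Prdx1 relative to Prdx2 changed by 0.10 (SE 0.082), which did not pass (adjusted exact permutation p = 0.264).

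Mice of 1 group varied little, and no relation between them passed. Over 8 relations, of Srxn1 with Txnrd1, Nqo1 (an NRF2 target), Prdx1 and Grb14 within each group of 6 mice, Pearson's r lay between −0.39 and 0.62, and the lowest adjusted exact permutation p was 0.733 for r and 0.267 for Spearman's rho. The highest was Srxn1 with Txnrd1 in sh Grb14 livers, with r = 0.62 (exact permutation p = 0.168) and rho = 0.89 (exact permutation p = 0.0333, adjusted 0.267). Without the 2 livers farthest from the median of Srxn1 its r was 0.97 over 4 livers. The same pair in sh scramble livers had r = −0.16 (exact permutation p = 0.756) and rho = −0.43 (exact permutation p = 0.419), with r = −0.63 over 4 livers. Over 4 livers r was far from 0 in other relations too. It was 0.90 for Srxn1 with Nqo1 in sh Grb14 livers and −0.90 for Srxn1 with Prdx1 in sh scramble livers. No test was run on the values over 4 livers, and none is read as a relation.

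Other genes of the wider thiol system moved both ways. The test called 5 of 13 thioredoxin and glutaredoxin partners higher, 6 lower and 2 neither, with a median change of −0.057. Among the 5, Glrx3 rose by 0.37 with overlapping groups (limma adjusted p = 0.0403). Its call was lost with arrays centred on the median of the genes (0.22, limma adjusted p = 0.186). Over all genes, the background for this and each later list, 25.8% were called higher and 39.5% lower, with a median change of −0.10. Txnrd3, a reductase best known from testis, was at 6.86 ± 0.046 in sh Grb14 livers and 7.72 ± 0.17 in sh scramble livers (SD, n = 6 each), a change of −0.86 (SE 0.071, limma adjusted p = 1.41e-08). Gsr, the glutathione reductase, was at 11.93 ± 0.066 in sh Grb14 livers and 11.08 ± 0.034 in sh scramble livers, a change of 0.85 (SE 0.036, limma adjusted p = 2.81e-12). Txnip, which binds and inhibits thioredoxin, was at 11.10 ± 0.12 in sh Grb14 livers and 10.27 ± 0.20 in sh scramble livers, a change of 0.83 (SE 0.080, limma adjusted p = 1.04e-07). Gsr and Txnip thus rose with Txnrd1, and Txnrd3 fell with Txnrd2. Txn2, the mitochondrial thioredoxin that Txnrd2 reduces, outside the 3 largest changes and named for its link to Txnrd2 after its value was seen, fell by 0.23 (SE 0.034, limma adjusted p = 1.72e-05).

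Among 11 genes that draw on thioredoxin or act beside peroxiredoxins, 3 were called higher, 4 lower and 4 neither, with a median change of −0.059. The 3 that rose had the largest changes of the list. Rrm2 and Rrm1, subunits of ribonucleotide reductase, which takes its electrons from thioredoxin, changed by 1.80 (SE 0.14, limma adjusted p = 7.72e-09) and 1.78 (SE 0.086, limma adjusted p = 1.66e-11). Sesn2, a stress-induced sestrin, changed by 1.78 (SE 0.097, limma adjusted p = 7.29e-11). In the same livers all 7 measured markers of proliferating cells rose. Their mean log2 level per liver was 9.62 to 10 in sh Grb14 livers and 7.12 to 7.42 in sh scramble livers, and their part in the rise of Rrm1 and Rrm2 was not tested. The 4 that fell were the methionine sulfoxide reductase genes Msra, Msrb1 and Msrb2 and the sestrin gene Sesn3 (−0.31, limma adjusted p = 0.000119). Msrb3 (0.0068, limma adjusted p = 0.895) and Rrm2b (−0.13, limma adjusted p = 0.193) did not pass.

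Of 10 other enzymes that remove peroxide or superoxide, 5 were called higher, 4 lower and 1 neither, with a median change of 0.058. Gpx4, 1 of the 5, rose by only 0.10 with overlapping groups. Its call was lost with arrays centred on the median of the genes (−0.043, limma adjusted p = 0.318). The 3 largest changes were rises of glutathione peroxidase genes. Gpx3, the plasma form, was at 10.77 ± 0.22 in sh Grb14 livers and 8.72 ± 0.42 in sh scramble livers (SD, n = 6 each), a change of 2.04 (SE 0.16, limma adjusted p = 5.01e-09). Gpx2, the gastrointestinal form and an NRF2 target, changed by 1.37 (SE 0.090, limma adjusted p = 7.49e-10), and Gpx8, of the endoplasmic reticulum, by 1.28 (SE 0.12, limma adjusted p = 7.65e-08). The 4 that fell were Cat, Gpx1, Sod1 and Sod2, which encode catalase, the main cytosolic glutathione peroxidase and the superoxide dismutases of cytosol and mitochondrion. Their changes lay between −0.47 for Sod2 and −0.16 for Gpx1.

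Genes of selenoprotein synthesis serve thioredoxin reductases, which need selenocysteine. Of 8 measured, the test called 5 lower, 1 higher and 2 neither, with a median change of −0.25, beside 39.5% lower, 25.8% higher and a median of −0.10 over all genes. The 5 include Selenop (−0.21, limma adjusted p = 0.000147), which encodes a secreted selenoprotein and not a synthesis enzyme. Sephs2, which makes the selenium donor, was at 10.78 ± 0.19 in sh Grb14 livers and 11.95 ± 0.034 in sh scramble livers (SD, n = 6 each), a change of −1.17 (SE 0.068, limma adjusted p = 1.54e-10). Sepsecs, the last enzyme of selenocysteinyl-tRNA synthesis, changed by −0.72 (SE 0.048, limma adjusted p = 1.01e-09) and Secisbp2, which binds the selenocysteine insertion element, by −0.35 (SE 0.064, limma adjusted p = 0.000175). Sephs1 was the 1 that rose, at 0.11 (limma adjusted p = 0.0496). That call was lost under both centrings and on leaving out sh Grb14 replicate 1, 2, 3 or 6 or sh scramble replicate 1, 2, 4 or 6.

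In the endoplasmic reticulum, where Prdx4 works beside the disulfide isomerases and oxidases, the test called 4 of 8 genes lower, 1 higher and 3 neither. The median change was −0.075, beside 39.5% lower, 25.8% higher and a median of −0.10 over all genes. Ero1b, a disulfide oxidase, changed by −1.42 (SE 0.095, limma adjusted p = 9.85e-10) and Qsox1, a sulfhydryl oxidase, by −0.57 (SE 0.056, limma adjusted p = 1.35e-07). Pdia6, an isomerase, was the 1 that rose, at 0.17 (SE 0.061, limma adjusted p = 0.0249), and its call was lost under both centrings and on leaving out sh Grb14 replicate 3 or sh scramble replicate 1, 2 or 3. In the NRF2 reference list 7 of 9 measured genes were called higher, 1 lower and 1 neither, with a median change of 1.04. Among the 7, Gclm rose by only 0.12 with overlapping groups. Its call was lost with arrays centred on the median of the genes (−0.031, limma adjusted p = 0.430), which left 6 higher.

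**Figure D4:**
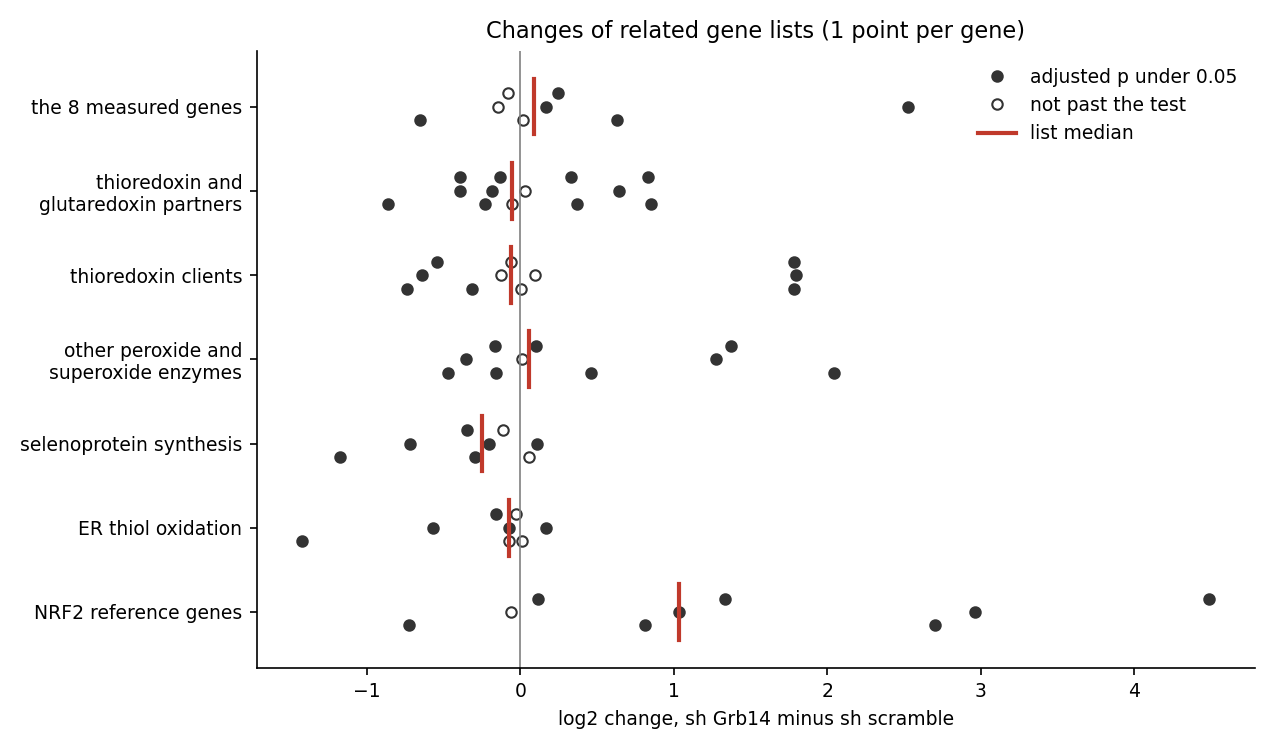
Log2 change, sh Grb14 minus sh scramble, of each gene in the 8 measured genes of the thioredoxin system and in 6 related lists, with 1 point per gene. Filled points passed the test, open points did not, and red bars are list medians, which run from −0.25 for selenoprotein synthesis to 1.04 for the NRF2 reference genes.

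Levels of cell type marker genes differed between the groups as well. All 6 measured markers of monocytes and recruited macrophages rose, with a mean log2 level per liver of 9.34 to 9.78 in sh Grb14 livers and 7.47 to 7.75 in sh scramble livers, and 8 of 9 markers of T and cytotoxic cells rose and 1 fell, with 8.90 to 9.23 in sh Grb14 livers against 7.16 to 7.27 in sh scramble livers. Among Kupffer cell markers 2 of 6 rose and 4 did not pass. Of 8 hepatocyte markers 7 fell and 1 did not pass, with mean levels, near the top of the scale in both groups, of 12.64 to 12.90 in sh Grb14 livers and 13.20 to 13.26 in sh scramble livers. Among stellate cell and fibroblast markers 5 of 7 rose and 2 fell, and among sinusoidal endothelial markers 2 of 6 rose and 4 fell. Of 5 cholangiocyte markers 1 rose and 4 did not pass. Only 3 erythroid markers were measured, with 1 higher, 1 lower and 1 not past the test, and the globin genes of that list had no probe set paired with their symbol alone. These shifts moved with Srxn1, Txnrd1 and Txnrd2, and their part in those changes was not tested.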

How the data were processed

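Liver RNA from 12 mice, 1 array per mouse, was measured on Affymetrix whole-transcript arrays. Per the labels' protocols, RNA was extracted with Trizol and 100 ng was labelled with biotin. The authors deposited log2 values for 35556 probe sets. Per the submitters' processing notes, the tools were RMA and Partek, whose versions and roles are not stated, and the chip description file is not given in the sources used here.

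Probe sets were named through the platform annotation: 21789 had 1 symbol, 1621 had several and 12146 had no listed gene. Where a symbol had several, the one with the highest mean was taken, which gave 19938 genes. The test was limma's, version 3.58.1 under R 4.3.3 (lmFit, eBayes with trend, Benjamini-Hochberg) with no covariate and no filter on level. On simulated data with 200 changed genes of 19938, 95% of changes of 0.5 and 99% of changes of 1 (log2) were recovered, with 10 false calls. The simulation had far fewer changed genes than these data and no shift of whole arrays. It therefore does not bear on smaller changes or on calls that depend on the scaling.

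Differences between genes were tested with a two-sided exact permutation test over mice. Alternatives were other scalings, other limma settings, filters on level, other choices of probe set and each mouse left out in turn. The genes, lists and pairs were chosen with earlier results of these data known. All 8 measured genes are described, and of each related list the 3 largest changes past the test, except that the NRF2 reference genes are given as counts; exceptions are named where they stand. The labels give no batch, so none was tested. The number of arrays, 6 in each group, limits the precision.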

Additional observations from a re-analysis of the deposited data

How the results depend on the processing

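Under all 22 alternatives Srxn1 (2.38 to 2.57), Txnrd1 (0.48 to 0.65) and Txnrd2 (−0.80 to −0.63) kept their direction and their call. Leaving out each mouse in turn gave 0.15 to 0.17 for Txn1, 0.22 to 0.28 for Prdx3 and −0.13 to −0.042 for Prdx2, with no change of call. It gave −0.0054 to 0.045 for Prdx1, whose sign turned without sh Grb14 replicate 6 (−0.0054) or sh scramble replicate 2 (−0.0050), with no call either way, and −0.19 to −0.11 for Prdx4. Centring each array on the median of the genes, which shifts every change by −0.15, gave 0.017 for Txn1, 0.097 for Prdx3, −0.13 for Prdx1, −0.23 for Prdx2 and −0.29 for Prdx4, and so 2 genes higher and 4 lower. Centring on the median of all probe sets, added after the data were seen, changed no call of the 8 genes. Prdx4 passed as lower after a further quantile normalization (−0.14), with robust eBayes (−0.14) and without sh Grb14 replicate 1, which each gave 2 genes lower. For the related lists, centring on the median of the genes gave 4 higher and 8 lower among thioredoxin and glutaredoxin partners. It gave 7 lower among thioredoxin clients and 4 higher among the other peroxide and superoxide enzymes. In endoplasmic reticulum thiol oxidation it gave 7 lower and 0 higher. It gave 0 higher in selenoprotein synthesis, and 6 higher and 2 lower among NRF2 reference genes. Centring on all probe sets gave 0 higher in both selenoprotein synthesis and endoplasmic reticulum thiol oxidation. Leaving out each mouse gave 0 to 1 higher in each of these 2 lists and 1 to 2 lower among the 8 genes. Among thioredoxin and glutaredoxin partners it gave 4 to 5 higher and 5 to 6 lower. The difference between Prdx4 and Prdx1 ranged from −0.22 to −0.15 with 1 mouse left out. Within sh scramble livers, centring on the median of the genes turned the sign of r for Srxn1 with Txnrd1 (0.33), Prdx1 (0.029) and Grb14 (0.29), none of which passed. The calls of Txn1 and the 4 peroxiredoxin genes therefore depend on the scaling. Those of Txn1 and Prdx3 were lost in 1 of the 22 alternatives, centring on the median of the genes. No detection call was available for dim probe sets.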
